A study of Homo sapiens with 6 samples.

Results

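The genes described here are 10 long noncoding RNAs, transcripts that are not translated into a known protein: MALAT1, NEAT1, KCNQ1OT1, TUG1, MEG3, H19, GAS5, SNHG1, SNHG5 and SNHG12. They were chosen by symbol among the 23368 genes of the count table, because MALAT1 was lower in the libraries labelled SOX10, and all 10 had enough reads for the test across genes. Since that difference chose them, the members' values are given as a description, no p-value is printed for a member, and counts of members past a threshold are printed only beside the same share over all genes. The cells were 1205Lu, an established human line from metastatic melanoma. In 3 replicates they received, by transient transfection, pCMV6-SOX10, a plasmid for SOX10, which directs gene expression in neural crest cells and melanocytes, and in 3 others the pCMV6 control plasmid. Both groups had the same line, the same transfection reagent and 7.8 µg of plasmid DNA per flask, and total RNA was taken after 24 h. The share of cells that took up plasmid is not stated in the labels, and the submitters describe the 3 replicates of each group, all from 1 line, as biological.

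Long noncoding RNAs act in different places. MALAT1 is a very abundant RNA of nuclear speckles, where splicing factors are stored, and NEAT1 is the scaffold of the neighbouring paraspeckles. KCNQ1OT1, H19 and MEG3 are transcribed from imprinted loci, where only 1 parental copy is active. KCNQ1OT1 runs antisense within KCNQ1 and silences its neighbours, and H19 is the precursor of a microRNA. TUG1 is found in nucleus and cytoplasm. GAS5, SNHG1, SNHG5 and SNHG12 are host genes of small nucleolar RNAs (snoRNAs): their introns carry the snoRNAs that guide the modification of ribosomal RNA, and their spliced exons are mostly degraded by nonsense-mediated decay when they reach the ribosome.

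Libraries differed in depth along with the groups. Reads assigned to genes numbered 2544420 to 4167393 per SOX10 library and 867917 to 2066520 per control, so every SOX10 library was the deeper one. A single read was worth 0.24 to 1.15 counts per 1000000 reads assigned to genes (CPM). The SOX10 gene itself stood at 21.7, 18.7 and 34.6 CPM in the SOX10 libraries against 16.6, 20.8 and 21.5 in the controls. It had a log2 fold change of 0.35 (SE 0.27, adjusted p = 0.927 by edgeR's quasi-likelihood test), so its reads did not separate the groups and the transfection labels could not be checked from them. SOX10 libraries below are those labelled so. Of 12 markers of melanoma and melanocytes, ERBB3 and S100A1 stood at 439 and 335 CPM on average in SOX10 libraries and at 444 and 324 CPM in controls, while the pigment genes MLANA, TYR, TYRP1 and DCT were under 1 CPM. The summed level of the 12 markers was 1306 to 1494 CPM in SOX10 libraries and 1316 to 1442 CPM in controls. For markers of keratinocytes and epithelia it was 123 to 139 against 118 to 126 CPM, for fibroblasts 173 to 234 against 165 to 205, and for leukocytes and endothelium 202 to 499 against 269 to 638, most of it CD68. ACTA2, a gene of myofibroblasts and smooth muscle, stood at 53, 56.2 and 46.5 against 32.1, 38.1 and 33.2 CPM, above every control (log2 fold change 0.60, SE 0.185, adjusted p = 0.409 by edgeR), and PDGFRA overlapped, at 128 ± 37.1 against 117 ± 15.4 CPM (SD, n = 3 each). Of the 4 tested fibroblast markers, ACTA2 and PDGFRA had positive log2 fold changes and the other 2 negative ones. The median of the 4 was -0.094 and the lowest value -0.53. CD3E and LUM had no reads. The part of such cells or of RNA quality in the results below was not tested. In bulk RNA, fewer cells with an RNA and less of that RNA per cell cannot be told apart.

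The 10 members together were read against all genes. By edgeR at an adjusted p under 0.05, 0 of 10 were called, beside 0.112% of the 10678 tested genes (0.103% called lower in SOX10), and 3 had an unadjusted p under 0.05, beside 6.23%. In 4 of 10, MALAT1, NEAT1, KCNQ1OT1 and SNHG5, all SOX10 libraries lay below all controls, beside 6.03% of tested genes, and in 0 of 10 all lay above, beside 5.72%. Because MALAT1's difference chose the group, nothing is read from these counts. The median log2 fold change of the members was -0.194, with 7 of 10 negative, beside 48.7% of all tested genes, whose median was 0.008. By DESeq2 and limma-voom 0 of 10 passed as well, and so did 0 of the tested genes in the lists of other snoRNA host genes and other long noncoding RNAs. The members lie on chromosomes 11 (MALAT1, NEAT1, H19, KCNQ1OT1 and SNHG1), 1 (GAS5 and SNHG12), 6 (SNHG5), 14 (MEG3) and 22 (TUG1). MALAT1, NEAT1 and KCNQ1OT1, at 0.738, 0.696 and 0.746 times their control level in the SOX10 libraries, are the 3 members whose longest RefSeq-linked transcript has 1 exon, whereas the other 7 have 3 to 13 exons. This split was noticed after the values were seen. Outside the members, 7 tested long noncoding genes of GENCODE had 1 exon, with a median log2 fold change of -0.018 and 1 of 7 lower without overlap. Another 53 had several exons, with a median of -0.189 and 5 of 53, beside 6.03% of all tested genes. Tested long noncoding genes without a RefSeq-linked transcript, among them H1FX-AS1 (described below), are in neither group. The 7 include RMRP, counted below among short structural RNAs as well, at 1114 CPM in SOX10 libraries and 1073 CPM in controls. The next highest of the 7, LINC00346, stood at 22.6 and 24.4 CPM.

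**Figure D1:**
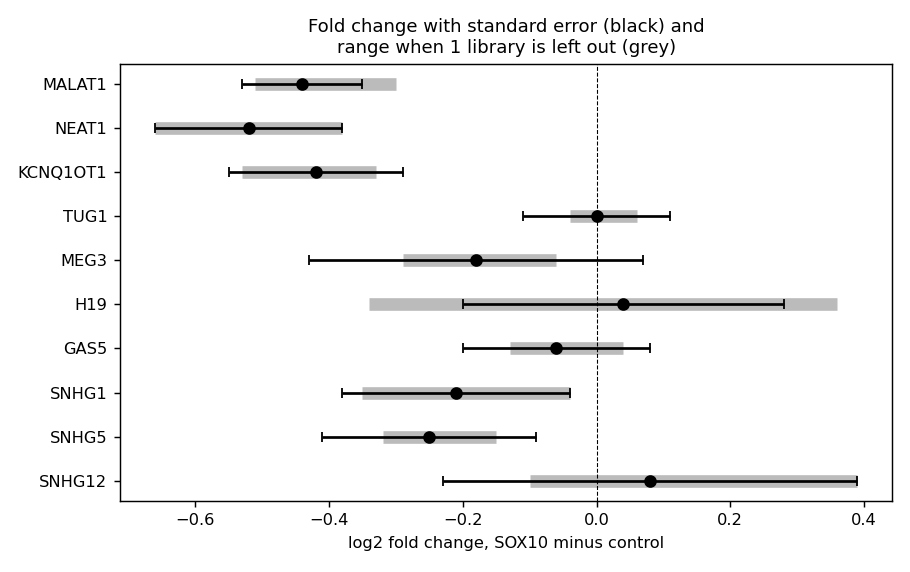
Log2 fold change of each member, SOX10 minus control (x axis), with its standard error (black) and the range of values when each library was left out in turn (grey). MALAT1, NEAT1 and KCNQ1OT1 stay at -0.3 or below in all of these fits, while the grey ranges of H19, GAS5, TUG1 and SNHG12 cross 0.

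MALAT1 far exceeded the other members and was lower in every SOX10 library than in every control library. It was counted with 33157, 24600 and 34102 reads in SOX10 replicates 1 to 3 and with 12963, 9779 and 22353 reads in the controls. After scaling for depth by TMM (trimmed mean of M-values), its level was 8879, 9812 and 8260 CPM in the SOX10 libraries and 14332, 11279 and 10899 CPM in the controls. The groups did not overlap, but the gap between SOX10 replicate 2 and control replicate 3 was smaller than the spread among the controls, of which replicate 1 was the highest. The means were 8984 ± 781 and 12170.3 ± 1882 CPM (SD, n = 3 each). The log2 fold change was -0.44 (SE 0.09), a level in the SOX10 libraries 0.738 times that of the controls. MALAT1 ranked 3 in CPM among 10678 tested genes, and its share of the assigned reads ran from 0.818% in SOX10 replicate 3 (95% exact binomial interval 0.81 to 0.827, counting error only) to 1.4% in control replicate 1 (1.38 to 1.42).

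The difference in MALAT1 is next given with another denominator and at equal depth. Both restate the reads that chose the group and are no further support for it. With 9779 or more MALAT1 reads in each library, thinning could move its value little. When divided by all uniquely aligned reads, with those outside genes counted in, MALAT1 stood at 4561, 4344 and 3656 reads per 1000000 in SOX10 libraries and at 6186, 4764 and 5457 in the controls, again without overlap. When every library was thinned at random to the smallest total, the median log2 fold change over 20 draws was -0.44, with a range from -0.47 to -0.4. Leaving out single libraries gave values from -0.51 without control replicate 3 to -0.3 without control replicate 1.

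**Figure D2:**
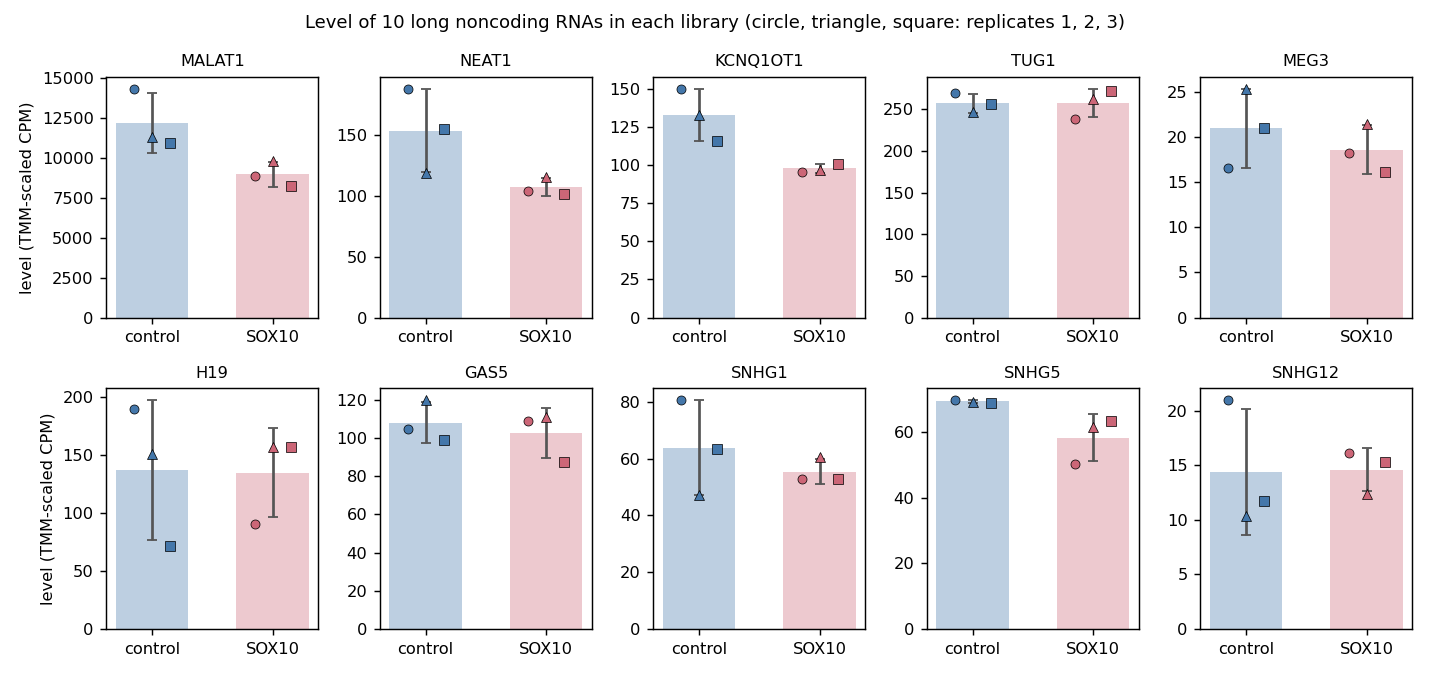
Level of each of the 10 RNAs in TMM-scaled CPM (y axis, from 0) in control (blue) and SOX10 (red) libraries. Bars are group means, error bars the SD of 3 replicates, and symbols the single libraries. For MALAT1, NEAT1, KCNQ1OT1 and SNHG5 all 3 SOX10 libraries lie below all 3 controls, and MALAT1 is the only RNA above 1000 CPM.

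The reference sequences show where transcription of MALAT1 is annotated to start. RefSeq (GRCh38.p14, while the reads were aligned to hg19) gives a window of 250 bases before to 50 bases after the start for 8 of the 10 genes, and for MALAT1 it gives 2 starts on the plus strand of chromosome 11. Both windows are shown because they are the candidate promoters of the RNA whose level chose the group. That of TUG1, on chromosome 22, is shown as another member that holds the same 6 letters on the same strand. The capitals mark ACAAAG, a core of the letters bound by SOX proteins.
MALAT1, first start, chr11:65497488-65497787, plus strand: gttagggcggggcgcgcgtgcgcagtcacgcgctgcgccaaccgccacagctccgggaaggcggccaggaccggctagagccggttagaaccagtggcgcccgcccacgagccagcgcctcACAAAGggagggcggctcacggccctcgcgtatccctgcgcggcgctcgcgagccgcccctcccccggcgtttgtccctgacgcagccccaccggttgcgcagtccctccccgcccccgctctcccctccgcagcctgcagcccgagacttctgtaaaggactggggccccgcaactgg
MALAT1, second start, chr11:65498795-65499094, plus strand: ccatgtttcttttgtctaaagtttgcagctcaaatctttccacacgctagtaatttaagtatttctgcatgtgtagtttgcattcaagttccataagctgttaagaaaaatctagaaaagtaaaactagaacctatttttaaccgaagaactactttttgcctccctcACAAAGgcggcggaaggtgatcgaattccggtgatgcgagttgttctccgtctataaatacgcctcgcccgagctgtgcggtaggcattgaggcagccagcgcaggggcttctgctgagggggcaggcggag
TUG1, chr22:30969015-30969314, plus strand: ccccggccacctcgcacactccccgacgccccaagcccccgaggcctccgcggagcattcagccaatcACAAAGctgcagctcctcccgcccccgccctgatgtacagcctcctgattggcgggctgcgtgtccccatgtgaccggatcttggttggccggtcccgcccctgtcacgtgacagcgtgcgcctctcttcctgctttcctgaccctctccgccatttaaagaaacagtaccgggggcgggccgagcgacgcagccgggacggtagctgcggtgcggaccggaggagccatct
On either strand, ACAAAG was found in 16.1% of 35114 such windows in RefSeq, and among the 8 members with a window it was found in MALAT1, TUG1 and SNHG1. These 3 had log2 fold changes of -0.44, 0.003 and -0.21, and the part of the letters in them was not tested. The related ACAATG was found in 10.8% of all windows and in no member. In MALAT1 the match began 129 bases before the first start and 82 bases before the second, and in TUG1 182 bases before the start. In SNHG1 it lay on the opposite strand, 155 bases before the start. TATAAA was found in 11.5% of all windows, and within the second MALAT1 window it began 30 bases before the start. The GC content of the 2 MALAT1 windows was 73.7% and 46%. These matches describe the letters only and do not show that a factor binds there.

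NEAT1, the paraspeckle scaffold, was rarer than MALAT1 and was likewise lower in every SOX10 library than in every control by CPM. It had 389, 291 and 422 reads against 170, 103 and 317, or 104, 116 and 102 CPM in the SOX10 libraries against 188, 119 and 155 CPM in the controls. Control replicate 2 lay just above SOX10 replicate 2, and control replicate 1 was the highest library. The log2 fold change was -0.52 (SE 0.14). Leaving out control replicate 2 gave -0.66, and leaving out control replicate 1 gave -0.38. When divided by all uniquely aligned reads the groups overlapped, with 53.5, 51.4 and 45.2 reads per 1000000 in the SOX10 libraries against 81.1, 50.2 and 77.4 in the controls. Over the 20 thinned draws the median was -0.59, with a range from -1.01 to -0.17, so at the depth of the smallest library the size of the difference was poorly fixed.

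KCNQ1OT1, the imprinted antisense RNA, showed a similar difference with little spread in the SOX10 group. It had 358, 243 and 417 reads against 136, 115 and 238, or 95.9, 96.9 and 101 CPM in the SOX10 libraries and 150.4, 133 and 116 CPM in the controls. The SOX10 libraries lay close together, at 97.9 ± 2.71 CPM (SD, n = 3), and all below the controls, at 133 ± 17.2. The log2 fold change was -0.42 (SE 0.13), and -0.33 without control replicate 1. KCNQ1OT1 lies on the opposite strand within KCNQ1, whose own count was 5 reads over all libraries. Whether counting used the strand is not stated in the labels, and unspliced KCNQ1 RNA and KCNQ1OT1 cannot be told apart. The same limit touches other members: the share of exonic bases that lie opposite another annotated transcript was 7.98% for TUG1, 4.83% for H19, 4.49% for MALAT1 and at most 1.24% for the rest.

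MALAT1, NEAT1 and KCNQ1OT1 were also compared with each other within each library. NEAT1 stood at 11.7, 11.8 and 12.4 reads per 1000 MALAT1 reads in the SOX10 libraries, against 13.1, 10.5 and 14.2 in the controls. KCNQ1OT1 stood at 10.8, 9.88 and 12.2 against 10.5, 11.8 and 10.6. Both sets of ratios overlapped between groups. Ratios within a library need no scaling for depth. TUG1, with its even level, was taken as a denominator after its values had been seen, so the ratios to it restate the differences above on another scale. There were 37.2, 37.3 and 30.3 MALAT1 reads per TUG1 read in the SOX10 libraries against 53.1, 45.7 and 42.7 in the controls. Relative to 1000 TUG1 reads, NEAT1 had 437, 442 and 375 against 697, 481 and 605, and KCNQ1OT1 402, 369 and 371 against 557, 537 and 454. None of these 3 ratios to TUG1 overlapped between groups.

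**Figure D3:**
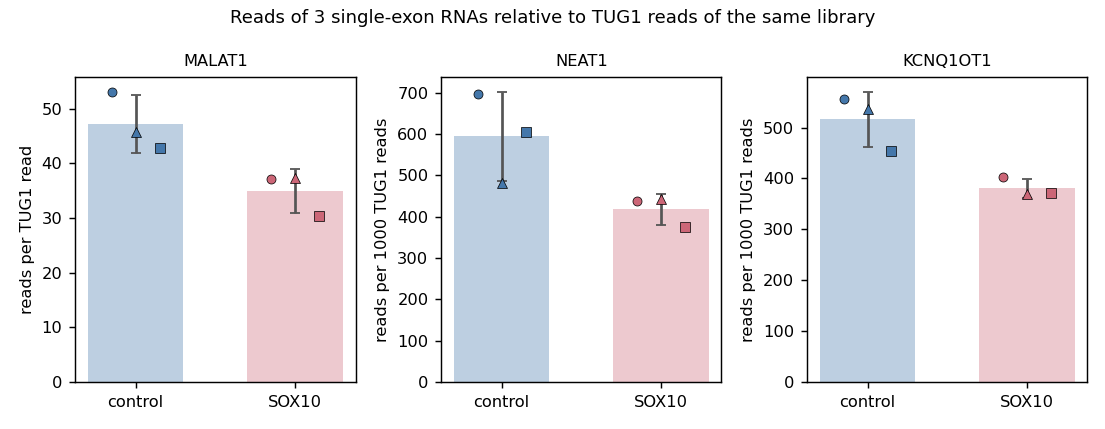
Reads of MALAT1 (left, per TUG1 read), NEAT1 and KCNQ1OT1 (middle and right, per 1000 TUG1 reads) on the y axis for control (blue) and SOX10 (red) libraries. Bars are means, error bars the SD of 3 replicates, and the circle, triangle and square are replicates 1, 2 and 3. The SOX10 libraries lie below the controls in each panel, from 30.3 to 37.3 against 42.7 to 53.1 for MALAT1.

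TUG1 was the steadiest member. It had 891, 659 and 1124 reads against 244, 214 and 524, or 239, 263 and 272 CPM in the SOX10 libraries and 269.8, 247 and 256 CPM in the controls. The groups overlapped, and the log2 fold change was 0.003 (SE 0.11), between -0.04 and 0.06 when single libraries were left out.

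Among the other imprinted RNAs, H19 varied more between replicates than any other member. It stood at 90, 157 and 157 CPM in the SOX10 libraries and at 189, 151 and 71.2 CPM in the controls, on 131 to 650 reads per library. SOX10 replicate 1 and control replicate 3 were low, and the other 4 libraries lay between 151 and 189 CPM. The log2 fold change was 0.04 (SE 0.24), and its sign depended on single libraries, at 0.36 when control replicate 1 was left out and -0.34 when control replicate 3 was. The 2 low libraries also had the fewest reads outside genes, 93.5 and 97 per 100 assigned reads, against 121 to 135 in the other 4. Without both, the log2 fold change was -0.119, and with reads outside genes as a covariate it was 0.232. The part of these reads in the level of H19 was not tested beyond those fits. MALAT1 did not separate these 2 libraries from the rest, and its log2 fold change was -0.506 without them.

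**Figure D4:**
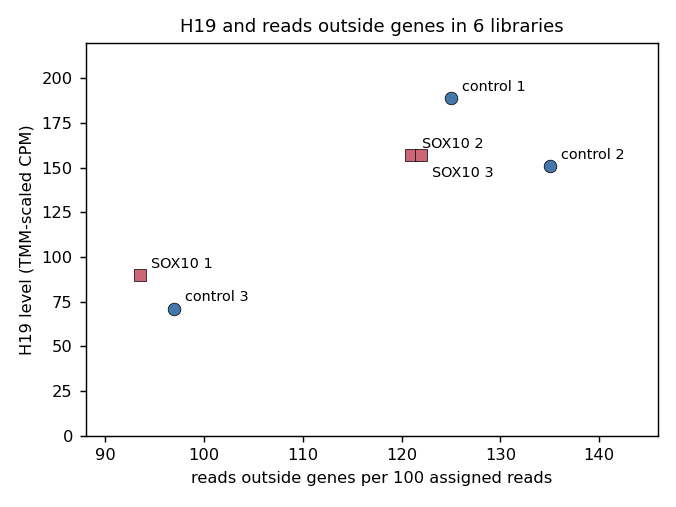
H19 level in TMM-scaled CPM (y axis, from 0) against reads outside genes per 100 assigned reads (x axis, not from 0) for the 6 libraries, with circles for controls and squares for SOX10. SOX10 replicate 1 and control replicate 3 are low on both axes, at 90 and 71.2 CPM, and the other 4 libraries lie at 151 CPM or above.

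MEG3, from the imprinted DLK1 locus, was rare, with 15 to 68 reads per library. Its level was 18.2, 21.5 and 16.2 CPM in the SOX10 libraries and 16.6, 25.4 and 21 CPM in the controls. The groups overlapped, and the log2 fold change was -0.18 (SE 0.25). Of 11 protein-coding genes at the imprinted loci 5 had enough reads, of which 0 passed edgeR's test at an adjusted p under 0.05 and 0 had an unadjusted p under 0.05. PHLDA2, a growth-restraining gene of the KCNQ1OT1 domain, stood at 166 to 194 CPM in SOX10 libraries and 188 to 209 CPM in controls, with a log2 fold change of -0.14 (SE 0.114, adjusted p = 0.929 by edgeR). The other tested genes of this list, NAP1L4, CD81, SLC22A18 and TSSC4, had log2 fold changes from -0.3 to 0.17.

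The 4 snoRNA host genes had log2 fold changes closer to 0 than that of MALAT1, a difference that was not tested. GAS5 stood at 109, 111 and 87.4 CPM in the SOX10 libraries and at 105, 120 and 99 CPM in the controls. SNHG1 stood at 52.8, 60.6 and 53 against 80.7, 47.3 and 63.4 CPM. SNHG12 was the rarest member, at 16.1, 12.4 and 15.3 against 21, 10.4 and 11.7 CPM on 9 to 63 reads. In these 3 genes the groups overlapped. Their log2 fold changes were -0.06 (SE 0.14) for GAS5, -0.21 (SE 0.17) for SNHG1 and 0.08 (SE 0.31) for SNHG12. The value of SNHG1 rested on control replicate 1, without which it was -0.04, and the sign of SNHG12 and GAS5 changed when single libraries were left out.

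SNHG5 was the only host gene among the members whose groups did not overlap. It had 187, 154 and 261 reads against 63, 60 and 141, or 50.1, 61.4 and 63.2 CPM in the SOX10 libraries and 69.7, 69.2 and 68.8 CPM in the controls. The controls lay at 69.2 ± 0.451 CPM (SD, n = 3), the SOX10 libraries at 58.2 ± 7.13, and SOX10 replicate 1 was the lowest library. A single read was worth 1.08, 1.15 and 0.484 CPM in control replicates 1 to 3, each more than the SD of the controls. That SD is therefore no measure of how precisely their level is known, and the absence of overlap rests on few reads. The log2 fold change was -0.25 (SE 0.16), and -0.15 without SOX10 replicate 1.

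Host genes of this kind often begin with a run of pyrimidines, the 5′ TOP signal that ties the translation of an RNA to cell growth. Below are the 10 bases before and 20 bases from the RefSeq start of the 4 host genes (GRCh38.p14, minus strand), shown to compare their starts. The capitals mark a C followed by at least 4 pyrimidines that begins within 5 bases of the annotated start.
GAS5, chr1:173869026-173869055: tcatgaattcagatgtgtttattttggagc
SNHG1, chr11:62855866-62855895: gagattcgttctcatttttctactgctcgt
SNHG5, chr6:85678714-85678743: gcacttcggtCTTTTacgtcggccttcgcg
SNHG12, chr1:28581854-28581883: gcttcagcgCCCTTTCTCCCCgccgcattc
Such a run was found in SNHG5, with 5 bases, and in SNHG12, with 12 bases, and in 21.1% of all 35114 windows. It was also found in members that host no snoRNAs, at the first start of MALAT1, with 6 bases, and at the first start of MEG3, with 5 bases. At MALAT1 the pyrimidines reach further upstream than the 6 bases counted and lie mostly before the annotated start. GAS5 and SNHG1 held none at the annotated base, which may differ from the start used in these cells. SNHG5 and SNHG12, which share the run, had log2 fold changes of -0.25 and 0.08.

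The snoRNAs inside the 4 host genes were hardly counted. All 24 listed snoRNAs had reads, but 439 in total over the 6 libraries, against 3334 for the 4 host genes, and only SNORD80, inside GAS5, had enough for a test. SNORD80 stood at 3.21, 4.39 and 5.57 CPM against 2.21, 4.61 and 6.83 CPM, with an adjusted p of 0.977 by edgeR. The other snoRNAs had at most 38 reads each over all 6 libraries (SNORA61) and were not tested. Among them SNORD50B, inside SNHG5, had 9, 7 and 10 reads in the SOX10 libraries against 1, 0 and 1 in the shallower controls, or 2.41, 2.79 and 2.42 CPM against 1.11, 0 and 0.488 CPM. SNORD22, inside SNHG1, stood at 2.14, 1.2 and 1.7 against 0, 0 and 0.975 CPM, and SNORD99, inside SNHG12, had 2, 1 and 4 reads against 0 in each control. These 3 were picked from the 24 after their values were seen, as those where all SOX10 libraries lay above all controls. Among all tested genes the share lying so was 5.72%. The 3 had very few reads, and a single read was worth up to 1.15 CPM. SNORD99 lay below that level in every SOX10 library, so the absence of its reads from the shallower controls is no sign of a difference.

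Compared per length, the order of the members changed. Levels were divided by the length of the longest GENCODE release 29 transcript that is linked to RefSeq. In the controls MALAT1 stood at 1398 ± 216 CPM per kb (SD, n = 3), followed by SNHG5 at 161 ± 1.05, GAS5 at 149 ± 14.9, H19 at 58.4 ± 25.6, SNHG1 at 42.9 ± 11.2 and TUG1 at 34.5 ± 1.55. Below these came SNHG12 at 10.5 ± 4.24, NEAT1 at 6.76 ± 1.52, MEG3 at 1.61 ± 0.338 and KCNQ1OT1 at 1.45 ± 0.187 CPM per kb. SNHG5 and GAS5, the trio of H19, SNHG1 and TUG1, SNHG12 and NEAT1, and MEG3 and KCNQ1OT1 lay within their spread of each other. The SD of SNHG5 is below the worth of a single read, as said above, and understates its error. The order below MALAT1 depends on the isoform taken as the length. With the shortest RefSeq-linked transcript of each gene, the control levels were 199 CPM per kb for GAS5, 161 for SNHG5, 139 for H19, 61.5 for SNHG1, 43.6 for NEAT1, 36.3 for TUG1, 21.1 for SNHG12, 14.7 for MEG3 and 1.45 for KCNQ1OT1. MALAT1 stayed first under both lengths and KCNQ1OT1 last, while the levels of MEG3 and NEAT1 changed most, with a short form of NEAT1 of 3.524 kb beside a long form of 22.74 kb. In the SOX10 libraries MALAT1 stood at 1032 ± 89.7, SNHG5 at 135 ± 16.6 and GAS5 at 142 ± 18.3 CPM per kb.

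Noncoding RNAs outside the members were tested with the same fit. Of 10 tested genes in the list of other snoRNA host genes, 0 passed and 1 had an unadjusted p under 0.05, beside 6.23% of all tested genes. A negative log2 fold change was seen in 7, beside 48.7% of all tested genes, and the median was -0.234. The list also held SCARNA9, itself a guide RNA of Cajal bodies, at 0.391, and MIR17HG, a microRNA host gene, at -0.431. SNHG15 stood at 28.4 ± 2.88 against 42.5 ± 2.92 CPM (SD, n = 3 each), without overlap, with a log2 fold change of -0.57 (SE 0.198, adjusted p = 0.526 by edgeR). ZNFX1-AS1, the symbol of ZFAS1 in the table, stood at 79, 85 and 80.7 against 109, 87.7 and 92.6 CPM, with a log2 fold change of -0.24 (SE 0.137, adjusted p = 0.877 by edgeR). SNHG3 and SNHG6 had log2 fold changes of -0.23 and 0.14 on overlapping groups. In 3 of the 10, SNHG7, SNHG15 and ZNFX1-AS1, the SOX10 libraries all lay below the controls, beside 6.03% of all tested genes. SNHG7 is named here after its value was seen.

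Other long noncoding RNAs had values on both sides of 0. Of 17 tested, 0 passed, 0 reached an unadjusted p under 0.05, 10 had negative values and the list had a median of -0.052. FGD5-AS1 stood at 104, 111 and 149 against 124, 113 and 113 CPM, at a log2 fold change of 0.07 (SE 0.142). C17orf76-AS1, kept in this list although it too hosts snoRNAs, stood at 94.5, 109 and 126 against 124, 116 and 105 CPM, with -0.05 (SE 0.137). Across all 66 tested genes that GENCODE annotates as long noncoding, the members left out, 42 were negative and the median was -0.143. Of these 66 genes 1 was called, H1FX-AS1, an antisense transcript at a histone gene, with a log2 fold change of -1.79 (SE 0.265, adjusted p = 0.00149 by edgeR). It stood at 8.3, 8.77 and 10.2 CPM against 34.3, 36.9 and 26.3 CPM. After 1 random thinning to equal depth its log2 fold change was -0.87, with an adjusted p of 0.986 by edgeR, while in each other alternative the call held, at -1.96 to -1.69. The 5 tested short structural RNAs, such as the RNA parts of ribonucleases and the guide RNAs of Cajal bodies, all had positive values with a median of 0.201, while 0 passed and 0 had an unadjusted p under 0.05. RMRP, the RNA of a ribonuclease that processes ribosomal and mitochondrial RNA, stood at 1225, 1088 and 1028 against 1202, 845 and 1171 CPM, with a log2 fold change of 0.05 (SE 0.112). RPPH1, the RNA of ribonuclease P, had 0.20 (SE 0.132) and an adjusted p of 0.913 by edgeR.

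Proteins of the bodies that MALAT1 and NEAT1 belong to were tested as well. Of 25 tested genes of paraspeckle proteins 0 passed, 0 reached an unadjusted p under 0.05 and the list had a median of -0.023. In 5 of the 25 all SOX10 libraries lay below all controls, beside 6.03% of tested genes. In 0 of the 25 all lay above, beside 5.72%. NONO and SFPQ, which coat NEAT1 and keep it stable, had log2 fold changes of 0.02 (SE 0.092) and -0.06 (SE 0.106). NONO stood at 726, 747 and 665 against 691, 715 and 698 CPM. Of 35 tested genes of nuclear speckle proteins 0 passed, and 5 had an unadjusted p under 0.05, beside 6.23% of all tested genes. Of the 35, 27 were negative, beside 48.7% of all, with a median of -0.087. All SOX10 libraries lay below all controls in 4 of the 35, beside 6.03% of tested genes, and above them in 0, beside 5.72%. SRRM2, a core protein of speckles, stood at 889, 952 and 806 against 1011, 1099 and 1042 CPM without overlap, with a log2 fold change of -0.25 (SE 0.092, adjusted p = 0.587 by edgeR). SON, the other core protein, stood at 647, 676 and 659 against 753, 629 and 672 CPM, with -0.05 (SE 0.095) and overlapping groups. TRA2A and PNN, named after their values were seen, had -0.47 (SE 0.157) and -0.34 (SE 0.132) on overlapping groups, with adjusted p-values of 0.499 and 0.681 by edgeR.

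Nonsense-mediated decay clears the spliced exons of host genes, and its factors were tested for that reason. Of 21 tested genes 0 passed, 2 had an unadjusted p under 0.05, beside 6.23% of all tested genes, and the median was -0.039. In 3 of the 21 all SOX10 libraries lay below all controls, beside 6.03%, and in 0 all lay above, beside 5.72%. SMG1, the kinase that starts the decay, stood at 453, 504 and 453 against 622, 552 and 532 CPM without overlap, with a log2 fold change of -0.27 (SE 0.099, adjusted p = 0.558 by edgeR). UPF3B, named after its value was seen, had -0.42 (SE 0.173) and an adjusted p of 0.689 by edgeR. Of 19 tested protein-coding neighbours of the members 0 passed, 0 reached an unadjusted p under 0.05 and the list had a median of 0.019. SYNCRIP, next to SNHG5, had a log2 fold change of -0.08 (SE 0.107). FRMD8 and LTBP3, named for their place beside MALAT1 and NEAT1, had -0.14 (SE 0.17) and 0.03 (SE 0.188). SLC3A2, beside SNHG1, had -0.27 (SE 0.14) and an adjusted p of 0.853 by edgeR.

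**Figure D5:**
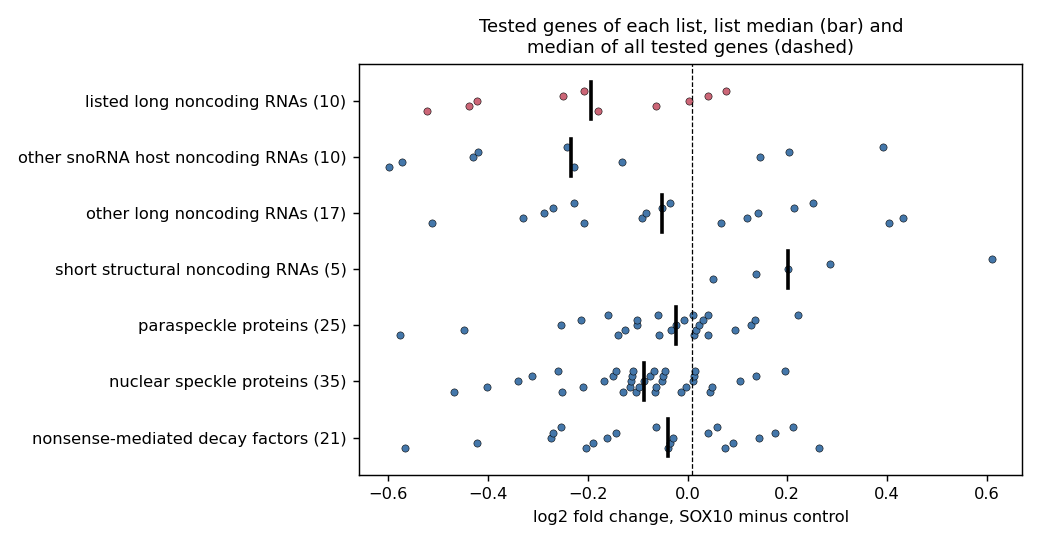
Log2 fold change, SOX10 minus control (x axis), of every tested gene in 7 lists (rows, with the number of tested genes). Each point is a gene, the bar is the median of its list and the dashed line the median of all tested genes. The medians run from -0.234 for other snoRNA host genes to 0.201 for short structural RNAs, beside 0.008 for all genes. The snoRNA host list includes SCARNA9 and MIR17HG, and the list of other long noncoding RNAs includes C17orf76-AS1, which also hosts snoRNAs.

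SMG1 was also the gene whose profile over the 6 libraries was most like that of MALAT1. By Pearson correlation of log2 CPM, a description over 6 libraries that share the group difference, the 5 most similar of 6624 genes with at least 20 CPM were SMG1 (0.988), NDUFB4 (0.986), ANKRD11 (0.984), KIAA0664 (0.982) and ABL2 (0.981). Likeness to MALAT1 chose these genes, so their lower level in the SOX10 libraries follows from the choice and is given without a test. ABL2, a tyrosine kinase of the cytoskeleton, stood at 442, 550.4 and 445 against 763, 622 and 578 CPM, with a log2 fold change of -0.45 (SE 0.114). ANKRD11, a chromatin regulator, stood at 301, 305 and 273 against 380.3, 338 and 333 CPM, with -0.26 (SE 0.104). Of the members, KCNQ1OT1 had a correlation of 0.917 with MALAT1 and NEAT1 one of 0.911, against 0.18 for TUG1 and 0.286 for H19.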

How the data were processed

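The submitters' processing notes name hg19 as the genome build and, as tools, DESeq, HTSeq and TopHat 1.4.0. Annotation, strand setting and overlap mode were not given in the sources used here. Deposited were raw counts of reads per gene symbol in 6 libraries, and 5 lines for unassigned reads entered neither library sizes nor tests. They were used as deposited. Of 23368 genes, 10678 passed edgeR's filter on low counts (minimum count 10, minimum total 15). SOX10 and control libraries were compared with edgeR 4.0.16 (R 4.3.3), by TMM scaling, the quasi-likelihood test and Benjamini-Hochberg adjustment over all tested genes, with a threshold of 0.05 and no covariate. Fold changes are SOX10 minus control. The median standard error was 0.23 (log2). Symbols were matched directly or through older symbols. Transcript lengths and exons came from GENCODE release 29, start windows from RefSeq (GRCh38.p14). No hg19 coordinates were used.

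The members and lists were chosen with earlier results of these data known. Named genes are the members, SOX10, in each other list the 4 tested genes of highest mean CPM (2 for markers) with any that passed, and the 5 genes most like MALAT1. Others are said to be chosen otherwise. The test was checked on simulated counts, where it recovered 76 of 100 changes of 2-fold and 99 of 100 of 4-fold, with 6 false calls. Smaller changes were not simulated, so how often the test would find a difference of the size seen in MALAT1 is not known. Alternatives included DESeq2 1.42.0, limma-voom (limma 3.58.1), other scalings and filters, thinning, covariates and leaving out libraries.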

Additional observations from a re-analysis of the deposited data

How the results depend on the processing

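The log2 fold change of MALAT1 was negative under all 18 alternatives, from -0.51 to -0.3, with both of these ends coming from leaving out a control replicate. Because its difference chose the members, counts of members past the threshold are no test of them and only show how the settings differ. By edgeR, there were 0 in the analysis reported, 1 (MALAT1) without the filter on low counts, 1 (MALAT1) with a filter at 1 CPM in 3 libraries, and 2 (MALAT1 and NEAT1) with reads outside genes as a covariate. Leaving out single libraries gave from 0 to 1, the 1 being MALAT1 without control replicate 2. The number of genes that passed was 12 in the analysis reported, 48 without the filter, 3 after 1 random thinning to equal depth, 52 with the covariate, 7 without SOX10 replicate 1 and control replicate 3 together, and from 6 (without control replicate 1) to 18 when single libraries were left out. The cause of these changes was not tested. With the replicate number as a block it was 7 genes, with MALAT1 at -0.431. Same-numbered libraries did not deviate together (correlations of -0.05, -0.08 and -0.29), so the numbers were not taken as pairs. Libraries of different numbers had correlations from -0.23 to 0.32. The highest were SOX10 replicate 1 with control replicate 3 (0.32) and SOX10 replicate 3 with control replicate 2 (0.31). The first of these pairs had the fewest reads outside genes, and what such pairs share was not tested. Of 162 values of the other members, 4 moved by more than their replicate SD, all in that single thinning: NEAT1 to -0.175, MEG3 to 0.283, KCNQ1OT1 to -0.719 and SNHG1 to -0.53. The medians over 20 draws, an alternative chosen after seeing the data, were -0.59, -0.25, -0.46 and -0.29. Depth limits MEG3 and SNHG12 most.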
